A study of Mus musculus with 2 samples.

Results

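Bulk RNA-seq of 2 murine rhabdoid tumors was examined for the genes of voltage-gated sodium, potassium and calcium channels and their relatives. The members were all protein-coding genes with a symbol of the Kcn (potassium channel), Scn (sodium channel) or Cacn (calcium channel) series, with their pore-forming and accessory subunits, and without the non-coding RNA Kcnq1ot1. This rule gave 133 of the 55416 genes in the count table, of which 21928 were protein-coding, and it used no expression value. The symbols reached beyond channels opened by voltage. The 133 genes fell into 12 classes, and 9 of these with 92 genes were voltage-gated families and their accessory subunits. The other 3 classes held 41 genes of calcium-activated and Slo potassium channels, inward rectifiers (Kir) and two-pore-domain leak channels (K2P), which are mostly gated by calcium, lipids, pH or metabolites. They are described here as related channels.

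Both tumors had formed in Dppa3-cre::Smarcb1 Fl/+ mice on a C57BL/6 background, in which Cre is made from the Dppa3 locus of primordial germ cells and 1 allele of Smarcb1, which encodes part of the SWI/SNF chromatin remodeler, is floxed. The library labelled intracranial is described as coming from a tumor at the trigeminal nerve. The library labelled extracranial is described as coming from a facial tumor of the maxillar region, and both tumors were classified as MYC. No tissue other than the 2 tumors entered the comparison. Both libraries share the genotype, and neither the age of the mice nor the share of tumor cells is given in the sources used here. With 1 library per location there were no replicates, so every comparison is between 2 libraries and not between locations, and no p-value is given. The libraries held 34545846 (intracranial) and 26915696 (extracranial) counts, and Smarcb1 itself had 365 and 530 counts. Since these were pieces of whole tissue, fewer cells of a type and less RNA per cell cannot be told apart. The tissue content differed: summed over 10 keratinocyte genes the level was 21517 CPM (counts scaled to library size) in the intracranial-labelled library and 3.10 CPM in the other, with Krt5, Krt6a, Trp63, Dsg3, Ivl and Sprr1b at 0 counts in the latter. The keratin gene Krt13 had 366709 and 5 counts, and the gland gene Muc5b had 83812 and 0. Whether this content matches the sites described for the libraries was not tested.

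Voltage-gated channels are membrane pores whose alpha subunits sense the membrane potential through charged segments. Sodium channels (Nav) start action potentials, potassium channels (Kv) end them and set the resting potential, and calcium channels (Cav) turn depolarization into calcium entry for secretion, contraction and transcription. In cells that do not fire action potentials, such as leukocytes, epithelia and many tumor cells, potassium channels hold the membrane potential negative and so maintain the driving force for calcium entry and the control of cell volume. Accessory subunits determine how many pores reach the surface and how fast they open and close.

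The promoter sequences of the member with the highest level and of the members with the largest difference in each direction are given first, because the description returns to these genes. The windows are the 250 bases before an annotated start, from RefSeq on GRCm38.p6, written 5′ to 3′ on the strand of the gene. A window was found for 98 of the 133 genes. Capitals mark matches on either strand to 4 motifs, which were CACGTG (the E-box bound by MYC and MAX, among others), TGANTCA (the AP-1 site), GGGCGG (the GC box) and TATAAA (the TATA box). They come from Kcnn4 at chr7:24370013-24370262 (plus strand), Kcnf1 at chr12:17176889-17177138 (minus strand), and the alternative starts of Kcnk10 at chr12:98578214-98578463 and chr12:98575128-98575377 (both minus strand).
Kcnn4: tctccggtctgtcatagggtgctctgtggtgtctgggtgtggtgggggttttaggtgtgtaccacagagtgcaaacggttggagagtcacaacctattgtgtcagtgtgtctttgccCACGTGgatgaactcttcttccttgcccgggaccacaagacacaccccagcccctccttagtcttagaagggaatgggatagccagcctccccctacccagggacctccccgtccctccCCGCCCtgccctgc
Kcnf1: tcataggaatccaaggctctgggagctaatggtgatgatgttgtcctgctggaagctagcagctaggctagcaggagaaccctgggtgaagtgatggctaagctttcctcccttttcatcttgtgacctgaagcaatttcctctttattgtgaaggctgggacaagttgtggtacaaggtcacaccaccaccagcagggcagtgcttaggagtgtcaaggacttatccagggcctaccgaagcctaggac
Kcnk10, first start: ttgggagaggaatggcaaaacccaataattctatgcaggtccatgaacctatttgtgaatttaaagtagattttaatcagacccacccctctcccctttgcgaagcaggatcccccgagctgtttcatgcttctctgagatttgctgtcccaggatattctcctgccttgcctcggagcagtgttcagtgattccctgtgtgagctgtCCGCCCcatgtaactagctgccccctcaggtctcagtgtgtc
Kcnk10, second start: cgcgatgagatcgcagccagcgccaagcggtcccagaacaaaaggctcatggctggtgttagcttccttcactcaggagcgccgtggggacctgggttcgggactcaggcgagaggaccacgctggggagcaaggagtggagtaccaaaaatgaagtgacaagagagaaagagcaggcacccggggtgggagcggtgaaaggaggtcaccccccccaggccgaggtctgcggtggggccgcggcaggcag

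The Kcnn4 window held 1 CACGTG, with its first base at position -133 from the start, and 1 GC box at -14, here read as CCGCCC on the opposite strand. The first start of Kcnk10 held 1 GC box at -42, while the second start and Kcnf1 held none of the 4 motifs. The windows also differed in CpG dinucleotides, with 16 in the second Kcnk10 window, 6 in Kcnn4, 4 in the first Kcnk10 window and 1 in Kcnf1, against a median of 6 over all 32851 windows of this length. CACGTG was present in 4.48% of the 134 windows of channel genes and in 6.02% of all windows, and the corresponding shares were 3.73% and 6.75% for TGANTCA, 42.5% and 32.7% for GGGCGG, and 3.73% and 12.4% for TATAAA. These are matches of letters and no measure of binding.

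Channel transcripts were a small part of both libraries and were led by few genes. The 133 genes took 0.0560% of the counts of the intracranial-labelled library and 0.0622% of those of the extracranial-labelled one, with summed levels of 557 and 626 CPM. A count of 3 or fewer, corresponding to 0.0863 and 0.112 CPM, was treated as background. By this floor 94 genes were above background in the intracranial-labelled library and 74 in the other, and 35 were at or under it in both. Of these, 11 had no count in either library, which allows a level of up to that floor. They were Kcna10, Kcnh8, Kcng3, Kcng4 and Kcnv2 among the Kv subunits, Kcne1 among the accessory ones, Kcnj1 and Kcnk16 among the related channels, and Cacna2d4, Cacng2 and Cacng3 among the calcium channel subunits.

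Kcnn4, the intermediate-conductance calcium-activated potassium channel of lymphocytes, macrophages, red cells and epithelia, had the highest level in both libraries. It had 4542 counts (131 CPM, 95% interval 127 to 135) in the intracranial-labelled and 4736 counts (177 CPM, 172 to 182) in the extracranial-labelled library. Per kilobase of exon, the scale used here for any comparison between genes, this was 25.6 and 34.6 CPM, or the 90.2 and 92.7 percentile of the 16543 protein-coding genes above background in either library. Kcnn4 alone made up 23.5% and 28.3% of all channel counts. Cacnb3, a cytoplasmic subunit that brings calcium channels to the surface, was also among the highest in both, with 10.7 and 10.2 CPM per kilobase. Other genes were high in one library more than in the other. Cacng7, a gamma subunit better known for regulating AMPA receptors, was high in the intracranial-labelled library with 9.71 CPM per kilobase against 2.74 in the other, where the acid-sensitive leak channel gene Kcnk3 had 8.94 against 3.47.

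**Figure D1:**
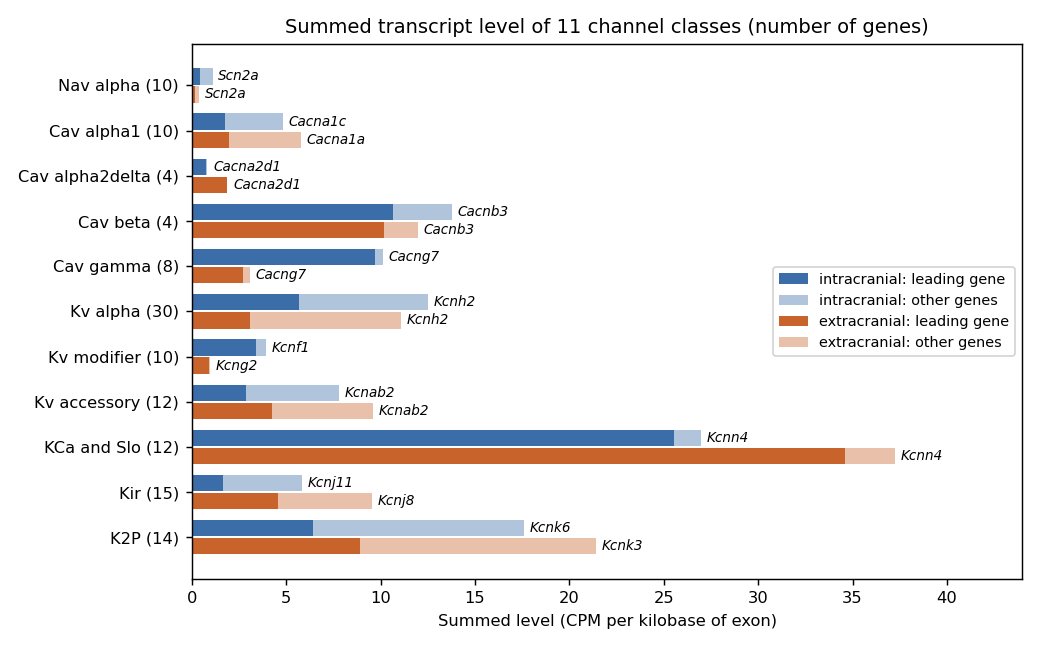
Summed level of 11 channel classes in CPM per kilobase of exon, with the number of genes in parentheses, for the libraries labelled intracranial (blue) and extracranial (orange); the full color is the leading gene, named at the bar, and the pale color the other genes of the class. Calcium-activated channels had the highest sums, 27.0 and 37.2, nearly all from Kcnn4, and Nav alpha subunits were among the lowest with 1.11 and 0.375.

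Differences between the libraries were larger for single channel genes than for channels as a group. Ratios of the extracranial to the intracranial level are given with their exact 95% interval. A gene was tested when the libraries together held at least 10 counts of it and was called different when this interval lay wholly beyond 4-fold. Of the 85 channel genes tested, 14 were called (16.5%), against 7.19% of the 21977 genes tested in the table and 8.94% of the protein-coding ones. Of these, 9 were higher in the intracranial-labelled and 5 in the extracranial-labelled library, where the shares were 5.41% and 1.78% over all genes and 6.83% and 2.11% over the protein-coding ones. How many passed varied with the count. None of the 24 channel genes with 10 to 30 counts over both libraries was called, against 2.34% of all genes in that range, and 4 of 21 were called with 30 to 100 counts, against 11.6%. Above these, 5 of 15 were called with 100 to 300 counts against 14.3%, 4 of 16 with 300 to 1000 against 10.01%, and 1 of 9 with 1000 or more against 4.34%. Of the 98 genes above background in either library, 46 were within 2-fold, against 17900 of the 24490 such genes in the table. Across those 98 genes the log2 ratio had a median of -0.36, with a count of 3 or fewer set to 3, compared to -0.04 over all genes. The summed level of all members differed little, with a log2 ratio of 0.17 (0.14 to 0.20), and 0.07 without Kcnn4.

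**Figure D2:**
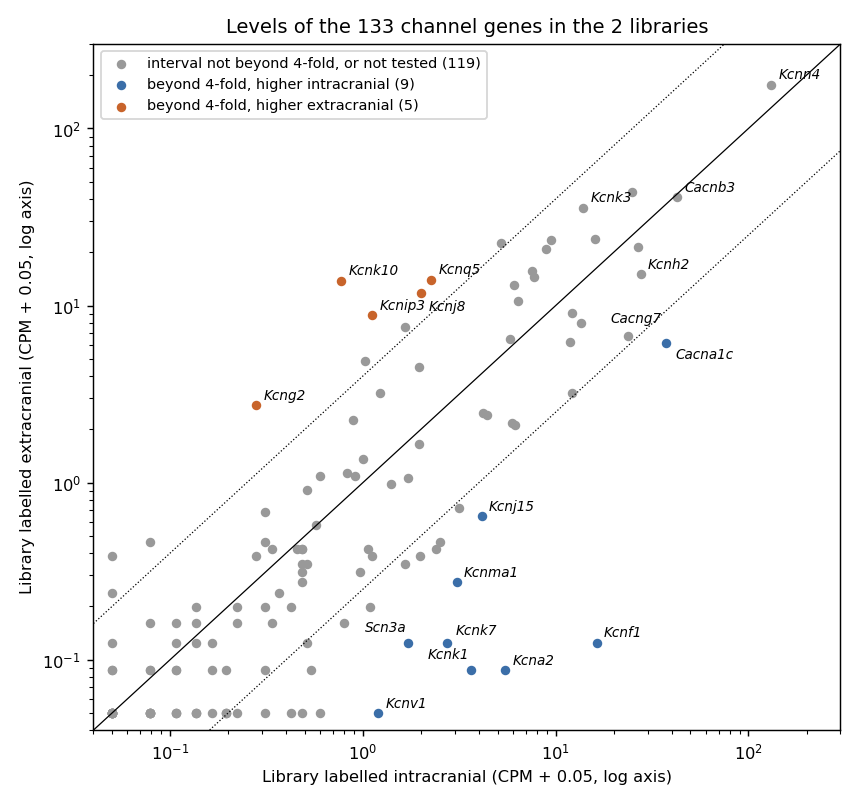
Level of each of the 133 channel genes in the library labelled intracranial (x axis) and extracranial (y axis), in CPM plus 0.05 on log axes; the solid line marks equal levels, the dotted lines 4-fold, and colored points the called genes. The 9 genes called higher in the intracranial-labelled library lie at the lower right, 6 of them at 2 or fewer counts in the other library, while Kcnn4 and Cacnb3 lie near the line of equal levels.

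Sodium channel pores were sparse in both tumors. Summed over the 10 alpha subunits, the level was 12.8 and 3.92 CPM, with a log2 ratio of -1.71 (-2.03 to -1.40). Scn2a, which encodes the Nav1.2 pore of central neurons and is the leading member, had 205 counts in the intracranial-labelled and 57 in the extracranial-labelled library, a log2 ratio of -1.47 (-1.92 to -1.04). It did not meet the 4-fold limit. The embryonic neuronal pore gene Scn3a had 58 and 2 counts and was the member of the class that was called, 22.3-fold higher in the intracranial-labelled library with a log2 interval of -7.56 to -2.56. Scn8a, the pore of nodes of Ranvier, had 81 and 10 counts, and its interval (-3.75 to -1.69) reached inside 4-fold. The gene of the sodium-level sensor Nax, Scn7a, had 58 and 27 counts. All 6 tested members had a ratio under 1-fold, which for Scn1a rested on 6 and 4 counts. Scn1a, Scn2a, Scn3a, Scn7a and Scn9a lie in a cluster on chromosome 2 in mice, and within it the counts ran from 205 for Scn2a to 6 for Scn1a in the intracranial-labelled library.

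Of the 4 beta subunits of sodium channels, which modulate gating and surface level, 0 of 3 tested were called by the interval beyond 4-fold. The share over all tested genes was 7.19%. Scn2b, which is linked to the pore by a disulfide bond, had 56 and 8 counts and a log2 ratio of -2.43 (-3.71 to -1.35), and Scn3b had 9 and 17 counts (1.29, 0.05 to 2.64). Scn4b was near background with 6 and 3 counts.

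Calcium channel pores differed by gene while their sum did not. The 10 alpha1 subunits summed to 70.9 and 69.1 CPM, a log2 ratio of -0.04 (-0.13 to 0.05). Cacna1c, the Cav1.2 pore of heart and smooth muscle, led the class in the intracranial-labelled library and was called, with 1298 counts there and 164 in the other (37.4 and 6.13 CPM) and a log2 ratio of -2.61 (-2.85 to -2.37). In the extracranial-labelled library the class was led by Cacna1a, the P/Q-type pore of nerve terminals, with 605 counts against 179. Its log2 ratio of 2.13 (1.89 to 2.38) reached inside the limit, so it was not called. Cacna1d, the Cav1.3 pore of endocrine and hair cells, also leaned to the extracranial-labelled library with 309 and 558 counts and a ratio of 1.23 (1.03 to 1.43). Of the T-type pores, which open near the resting potential, Cacna1g had 422 and 240 counts, Cacna1h had 86 and 11, and Cacna1i had 66 and 119. The skeletal muscle pore gene Cacna1s was at 3 and 0 counts.

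Among the accessory calcium channel subunits none was called of the 8 tested, against 7.19% of all tested genes. Cacna2d1, an alpha2delta subunit and the target of gabapentin, held nearly the whole alpha2delta level with 326 and 623 counts and a log2 ratio of 1.31 (1.12 to 1.51). Cacna2d2 had 19 and 0 counts, with a log2 interval below -1.85, and the class ratio of 1.23 turned to -2.36 without Cacna2d1. Cacnb3 had 1484 and 1091 counts with a ratio of -0.07 (-0.18 to 0.05). Cacnb1, the beta subunit of skeletal muscle that is also found elsewhere, had 470 and 213 counts (-0.76, -1.01 to -0.53). Of the 8 gamma genes 3 were above background in either library, and Cacng7 made up most of their level with 824 and 179 counts and a ratio of -1.83 (-2.07 to -1.59). Its neighbors on chromosome 7, Cacng6 and Cacng8, had 2 and 0 and 0 and 2 counts, respectively.

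The 30 Kv pore genes summed to 75.8 and 63.5 CPM with a log2 ratio of -0.25, which was 0.01 without the leading gene Kcnh2. Kcnh2, the hERG channel known from cardiac repolarization, had 958 and 402 counts and a ratio of -0.88 (-1.05 to -0.71). Of 20 tested pore genes 2 were called (10%), 1 in each direction, against 7.19% of all tested genes. Kcna2, the Kv1.2 pore next to the nodes of Ranvier, had 188 counts in the intracranial-labelled library and 1 in the other, 145-fold higher in the former with a log2 interval of -12.49 to -4.68. Kcnq5, a Kv7 pore of the M-current in neurons and smooth muscle, had 77 and 373 counts, 6.29-fold higher in the extracranial-labelled library (log2 ratio 2.65, 2.30 to 3.03).

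Other Kv pores leaned one way or the other without being called. Kcnd1, an A-type Kv4 pore, had 410 and 166 counts (-0.93, -1.20 to -0.66). Kcnh1, the ether-a-go-go channel, had 209 and 346 (1.10, 0.85 to 1.36). Kcna3, the Kv1.3 pore of T cells, was low in both libraries at 18 and 14 counts, with an interval of -1.11 to 1.10 that also allows a 2-fold difference. Kcnq1 had 30 and 28 counts, and the long non-coding RNA Kcnq1ot1, which is transcribed from the other strand inside Kcnq1, had 1075 and 558, so reads of Kcnq1 are uncertain where strand was not used in counting.

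The modifier subunits included the channel gene with the widest difference, Kcnf1. These Kv5, Kv6, Kv8 and Kv9 proteins form no channel alone and alter Kv2 channels when they join them. Of the 4 tested, 3 were called (75%), against 7.19% of all tested genes. Kcnf1 (Kv5.1) had 565 counts in the intracranial-labelled library and 2 in the other (16.3 and 0.0747 CPM), 218-fold higher in the former with a log2 interval of -10.81 to -5.91. Kcnv1 (Kv8.1) had 40 and 0 counts and was called lower in the extracranial-labelled library, with a log2 interval below -2.99. Kcng2 (Kv6.2) was the exception with 8 and 72 counts, 11.7-fold higher in the extracranial-labelled library (log2 ratio 3.55, 2.49 to 4.81). The class sum had a log2 ratio of -2.63 (-2.99 to -2.30), which rested on Kcnf1 and was 0.47 without it.

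Of the 12 Kv accessory subunits, 1 of 9 tested was called (11.1%), against 7.19% of all tested genes. Kcnip3, a calcium-binding protein that escorts Kv4 channels and is also known as the transcriptional repressor DREAM, had 37 and 234 counts, 8.21-fold higher in the extracranial-labelled library (log2 ratio 3.04, 2.53 to 3.58). The leading member was Kcnab2, a beta subunit of Kv1 channels, with 554 and 631 counts and a ratio of 0.56 (0.40 to 0.73). Kcne3, which holds Kcnq1 open in epithelia, had 152 and 63 counts (-0.89, -1.34 to -0.46).

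**Figure D3:**
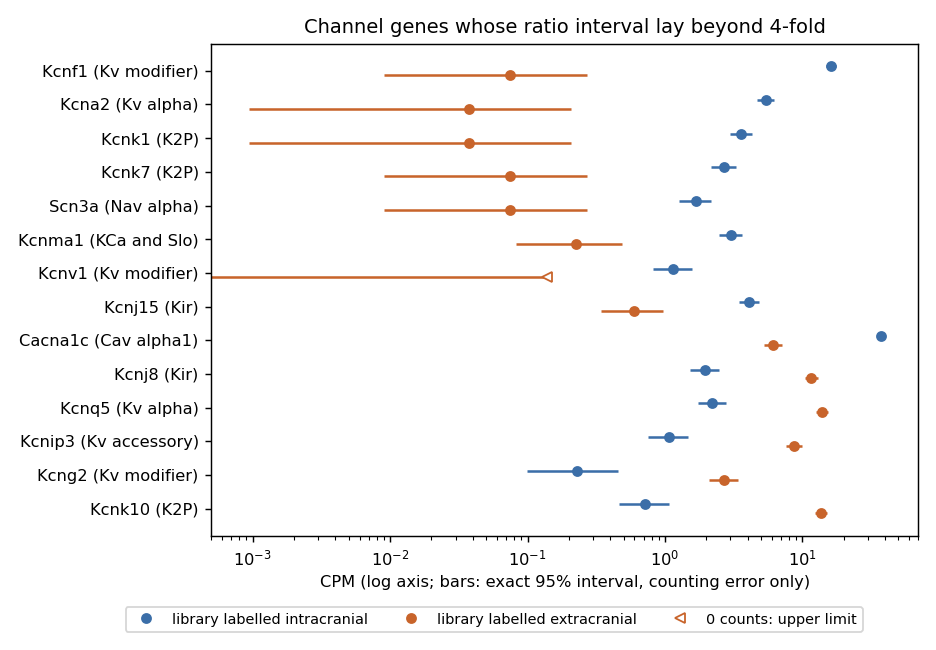
Level of the 14 called channel genes in CPM on a log axis, for the libraries labelled intracranial (blue) and extracranial (orange); bars are exact 95% intervals for counting error only, and the open triangle is the upper end of the interval for 0 counts, with a bar to the left edge at 0.0005 CPM. Kcnf1 at the top had 16.3 against 0.0747 CPM, and Kcnk10 at the bottom had 0.719 against 13.8 CPM.

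The leak channels of the K2P class gave 3 of the 14 calls among 11 tested (27.3%), against 7.19% of all tested genes. Kcnk10 (TREK-2), opened by stretch and lipids, had 25 counts in the intracranial-labelled and 368 in the extracranial-labelled library, 19.1-fold higher in the latter (log2 ratio 4.26, 3.67 to 4.90). Its relative Kcnk2 (TREK-1) had 66 and 43 counts with a ratio of -0.24 (-0.83 to 0.33). In the other direction, Kcnk1 (TWIK-1), present in many epithelia, had 125 and 1 counts, 96.3-fold higher in the intracranial-labelled library (-11.90 to -4.08). Kcnk7, a member of the TWIK group with no known current of its own, had 93 and 2 counts, 35.8-fold higher there (-8.23 to -3.27). The most abundant leak channels were Kcnk6 (TWIK-2), with 925 and 575 counts and a ratio of -0.31 (-0.46 to -0.16), and Kcnk3 (TASK-1), with 480 and 951 counts and a ratio of 1.36 (1.20 to 1.52). Both stayed well inside 4-fold.

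Inward rectifiers include the ATP-sensitive (KATP) channels that couple metabolism to potential. Kcnj8, the Kir6.1 pore of vascular KATP channels in smooth muscle and pericytes, had 68 and 312 counts, 5.96-fold higher in the extracranial-labelled library (log2 ratio 2.57, 2.19 to 2.98). Its partner, the sulfonylurea receptor gene Abcc9, had 113 and 437 counts and was called in the same direction (2.33, 2.03 to 2.64). For the islet-type pair, the Kir6.2 pore gene Kcnj11 had 211 and 55 counts (-1.56, -2.02 to -1.13) and its receptor gene Abcc8 had 199 and 189 (0.30, 0.01 to 0.60). Kcnj15 (Kir4.2), an epithelial rectifier, had 142 and 16 counts, 6.83-fold higher in the intracranial-labelled library, and its interval (-3.62 to -2.02) lay so close to the limit that the call was lost under upper quartile scaling. The glial Kcnj10 (Kir4.1) had 260 and 419 counts (1.07, 0.84 to 1.29), and Kcnj2 (Kir2.1) had 199 and 172 (0.17, -0.14 to 0.47).

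In the class of calcium-activated and Slo channels, 1 of 7 tested genes was called (14.3%), against 7.19% of all tested genes. Kcnma1, the BK pore that both calcium and voltage open, had 105 and 6 counts, 13.5-fold higher in the intracranial-labelled library (log2 ratio -3.75, -5.23 to -2.58). Its beta1 subunit of smooth muscle, Kcnmb1, had 16 and 23 counts (0.90, -0.08 to 1.92). Of the BK gamma subunits, Lrrc26, which lets BK open at rest in secretory epithelia, had 264 and 0 counts and was called lower in the extracranial-labelled library, with a log2 interval below -5.77, while Lrrc55 had 15 and 70 counts (2.60, 1.78 to 3.51). Among the small-conductance channels, Kcnn1 had 34 and 128 counts (2.29, 1.73 to 2.88) and Kcnn3 had 221 and 284 (0.74).

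Partners that anchor or modulate sodium channels were examined beside the pores. Of 12 such genes, 4 of 12 tested were called, all higher in the intracranial-labelled library, against 5.41% of all tested genes in that direction. The 12 genes had a median log2 ratio of -1.06 against -0.04 over all genes. Ank3 (ankyrin G), the anchor of sodium channels at nodes and axon initial segments, had 1176 and 149 counts, and Nfasc (neurofascin) had 283 and 12. The intracellular fibroblast growth factors Fgf11 and Fgf14 had 238 and 28 and 146 and 5 counts, respectively, whereas their relative Fgf13 had 18 and 78 (2.49, 1.74 to 3.32) and was not called. Of 13 calcium channel partners and intracellular release channels, 0 of 12 tested were called by the interval beyond 4-fold. The adaptor gene Stac2 had 4393 and 3163 counts (-0.10, -0.16 to -0.03), and Itpr3, the type 3 inositol trisphosphate receptor, had 4843 and 2395 (-0.64, -0.71 to -0.57). Of 7 partners of Kv channels and HCN pacemaker channels, 0 of 7 tested were called, with a median of 0.34.

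**Figure D4:**
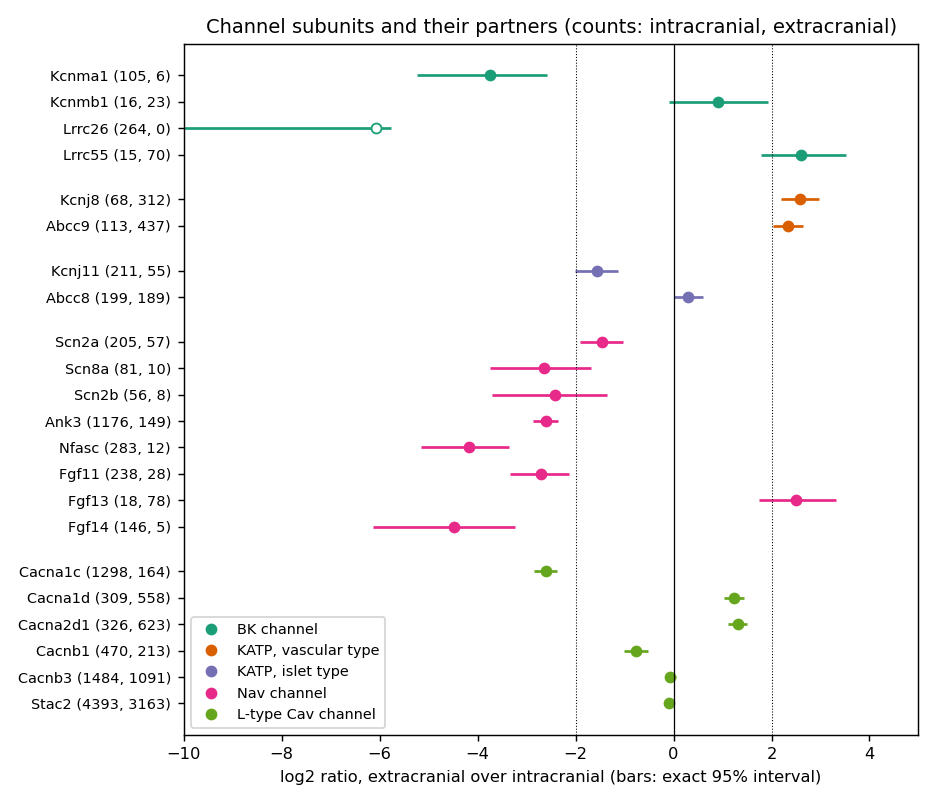
log2 ratio extracranial over intracranial of pore genes and their partners, grouped by channel type, with exact 95% intervals for counting error only; counts are in parentheses and dotted lines mark 4-fold. The open circle is Lrrc26 with 0 counts in 1 library, drawn at the floor of 3 counts with its interval running to the edge. Kcnj8 and Abcc9 lie together near 2.57 and 2.33, while Kcnma1 at -3.75 and Kcnmb1 at 0.90 lie apart.

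Channel genes were also grouped by the tissue they are best known from. Beside the counts of these lists and of the marker lists stand the shares called over all tested genes. They were 5.41% higher in the intracranial-labelled and 1.78% higher in the extracranial-labelled library. Of 9 epithelial channel genes, 3 of 7 tested were called, namely Kcnk1, Kcnk7 and Kcnj15, all higher in the intracranial-labelled library, and Kcnk5, an alkaline-activated leak channel of kidney, leaned the same way with 108 and 18 counts (-2.21, -3.02 to -1.48). Kcnn4 and Kcnq1, also on this list, had ratios of 0.44 and 0.28. In the same libraries 8 of 10 keratinocyte genes and 8 of 10 genes of glandular epithelium were called higher in the intracranial-labelled library. The glandular sum was 2664 and 22.5 CPM, with Muc5b, Bpifa1 and Bpifb1 at 0 counts in the extracranial-labelled one. The part of this epithelial content in the channel differences was not tested.

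Of 21 neuronal channel genes, 2 of 15 tested were called, Scn3a and Kcna2, and the median log2 ratio was -1.47. The levels of Scn2a, Scn8a, Kcnc1 and Cacna1b were also lower in the extracranial-labelled library, at 57, 10, 3 and 7 counts against 205, 81, 26 and 32, whereas Cacna1a, Cacna1e (29 and 59) and Kcnd2 (1 and 11) were higher. General neuronal markers did not move one way: their sum was 85.8 and 139 CPM, Nefl was called higher in the extracranial-labelled library (396 and 1613 counts), and Elavl3 (21 and 0) in the other. The 6 channel genes of sensory neurons were near background except Cacna1h. The nociceptor pores Scn9a, Scn10a and Scn11a had 9 and 0, 5 and 0, and 2 and 2 counts. Of 10 markers of sensory ganglion neurons, Calca was called with 2484 and 39 counts, while Trpv1 (2 and 1) and Mrgprd (0 and 0) were at or near 0 in both libraries. Prph leaned to the extracranial-labelled library with 97 and 181 counts (1.28, 0.91 to 1.65). Avil was near equal with 81 and 67 counts (0.10, -0.39 to 0.59). Schwann cell markers bear on the nerve named in the description of the intracranial-labelled tumor. Of 10 such markers 3 were called, among them Sox10 (43 and 0) higher in the intracranial-labelled and Egr2 (630 and 2396) higher in the extracranial-labelled library. Their sums were 247 and 253 CPM, with 8 of 10 ratios under 1-fold, 2 above it and a median log2 ratio of -1.49. The part of these cells in the values of Kcna2, Scn8a, Ank3 and Nfasc was not tested.

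Of 6 channel genes of smooth muscle and pericytes, 3 of 6 tested were called, with Kcnj8 in one direction and Cacna1c and Kcnma1 in the other. The marker genes of these cells were split as well, with 7 of 10 ratios under 1-fold, 3 above it and a median log2 ratio of -0.89. Their sum was 157 and 260.0 CPM, of which Rgs5 held 27.9 and 107 CPM and Cspg4 held 59.5 and 100 CPM. Cnn1 was called higher in the intracranial-labelled library (164 and 1 counts) and Abcc9, which also counts among the KATP receptors above, in the other. The pericyte gene Rgs5 had 969 and 2875 counts (1.95, 1.84 to 2.05), and the smooth muscle gene Myh11 had 220 and 40 (-2.08, -2.61 to -1.59). Of 6 skeletal muscle channel genes 2 were tested and 0 called by the interval beyond 4-fold, although 5 of 10 skeletal muscle markers were called higher in the intracranial-labelled library, with a sum of 59.6 and 12.3 CPM. Skeletal muscle pores Scn4a and Cacna1s were at 4 and 2 and at 3 and 0 counts. The part of muscle and mural cells in these values was not tested.

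The 5 leukocyte channel genes were all within 2-fold. Kcnn4, Kcnk13 (THIK-1, a leak channel of microglia), Kcnab2, Kcnj2 and Kcna3 had log2 ratios of 0.44, 0.92, 0.56, 0.17 and 0.01, with a median of 0.44, and 0 of 5 tested were called by the interval beyond 4-fold. Kcnk13 had 267 and 388 counts, with an interval of 0.69 to 1.15. Macrophage markers summed to 5903 and 12976 CPM, with 9 of 10 at ratios above 1-fold and Cd163 called in the other direction (3507 and 480 counts). T cell markers summed to 21.7 and 46.1 CPM, with Cd4 and Cd8a called higher in the extracranial-labelled library. Of the 10, 8 had ratios above 1-fold and 2 under it. Cd3d, Cd3e and Cd3g were near equal, with 73 and 70, 61 and 48, and 224 and 195 counts. Cd5 (82 and 37) and Zap70 (130 and 74) leaned to the intracranial-labelled library. The part of these cells in the level of Kcnn4 was not tested.

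For 5 of the 14 called genes (Kcnk1, Kcnma1, Kcnj15, Kcng2 and Kcnq5) the exons overlap a gene on the opposite strand, and whether strand was used in counting is not stated. Without the 39 channel genes that overlap another gene, 9 of 55 tested genes were called, 6 higher in the intracranial-labelled and 3 in the extracranial-labelled library.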

How the data were processed

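Poly(A) RNA of 2 murine tumors, 1 per localization label, had been sequenced as single reads from directional libraries. Per Ensembl gene the deposited file gave raw counts, which the authors had made with STAR 2.7.9a and featureCounts on GRCm39 and Ensembl release 104. Strand setting and treatment of reads with several alignments are not given in the sources used here, so overlapping and near-identical genes are uncertain. Symbols, biotypes and summed exon lengths were from GENCODE M21 (GRCm38), which matched 52135 of 55416 IDs (94.1%). IDs without a symbol held 0.694% and 0.950% of the counts and stayed in library sizes.

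CPM were counts over library sizes scaled by edgeR 4.0.16 (TMM, R 4.3.3), with factors of 1.006 and 0.994. Levels have exact Clopper-Pearson 95% intervals and ratios have conditional exact binomial ones (scipy 1.17.1), for genes with 10 or more counts over both libraries. Intervals and floors cover counting error only, since the reads carry no molecular identifiers and may be copies of 1 molecule. No edgeR model was fitted across genes, since each location had no more than 1 library. Ratios of genes with 1 to 3 counts are as measured, genes at 0 in 1 library have the interval bound alone, and medians hold all counts of 3 or fewer at 3.

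Named were all called members, the leading member of each class, members of the tissue lists, members at 0 in both libraries, and called partners and markers; Cacna2d2, Cacna1d, Cacna1g, Cacna1i, Cacng6, Cacng8, Kcnd1, Kcnh1, Kcnn1, Kcnn3, Kcnk2, Kcnj10, Scn7a, Scn2b, Scn3b and Scn4b and the partners and markers that were not called were chosen after their values were seen. Members and lists were chosen with earlier results of these data known. The procedure was tested on simulated counts. Alternatives comprised scaling by upper quartile, by total counts or by DESeq2 1.42.0 size factors, other limits on counts and fold, sums per kilobase and sums without the leading gene. Protein sequences were not analysed here, and some genes, with the sum of the class that 1 of them leads, are not reported here.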

Additional observations from a re-analysis of the deposited data

How the results depend on the processing

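No paired analysis was possible because neither label covers more than 1 library, and for the same reason no replicate could be left out. Called channel genes numbered 14 with DESeq2 size factors, 14 with total counts and 13 with upper quartile scaling, and the median log2 ratio of all genes lay between -0.05 and 0.00. With an interval beyond 2-fold, 36 channel genes were called (12 higher extracranial, 24 higher intracranial) against 15.6% of all genes, and with the ratio beyond 4-fold alone 28 were called (9 and 19) against 11.6%. The 5 partner lists then gave 10 calls (5 higher extracranial) and 11 calls (6), and the 6 tissue lists of channels gave 17 (3 higher extracranial, 14 higher intracranial) and 14 (3 and 11). Without members overlapping another gene, a choice made after seeing the data, 9 were called (3 higher extracranial). The log2 ratio of the sum over all members was 0.21 under upper quartile scaling and 0.075 without Kcnn4. Leaving out the leading gene of a class turned the direction for Nav beta (-0.97), alpha2delta (-2.36), Kv alpha (0.0081) and Kv modifier subunits (0.47), and gave 0.91 for Cav alpha1, -0.80 for Cav beta, -0.51 for Cav gamma, 0.57 for calcium-activated, 0.18 for Kir and 0.15 for K2P channels. Sums per kilobase gave 0.25 for Cav alpha1, -2.02 for Kv modifier, 0.29 for Kv accessory, 0.71 for Kir and 0.28 for K2P channels. The median of the BK gamma subunits was -1.74 over genes with 10 or more counts and 1.96 with a prior count of 2. Among medians that kept their sign, that of the sensory neuron channels moved from -0.78 to -2.59 with 10 or more counts and that of the Cav gamma genes from -0.62 to -1.62 with the prior count. These shifts follow from which genes, lengths or added counts enter a sum or median. Of the values under alternatives, single-gene levels aside, 215 lay within the interval or the 1.5-fold range around the reported value. Another 32 lay outside it, and 4 changed sign where the interval did not span 0. For medians this interval was the median of the bounds of single genes. It can be very wide and span 0, so a median inside it need not have kept its sign. Counts of 3 or fewer limit any statement on the 35 members at background in both libraries.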
